A study of Mus musculus with 12 samples.

Results

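Ovaries of adult mice that had lost Foxl2 were set against testes of adult wild-type mice, gene by gene. The comparison uses 6 of the 12 samples of the series, 3 mutant ovaries and 3 testes, placed in their groups by their labels, and no wild-type ovary enters it. The other samples are 2 adult wild-type ovaries and 4 newborn ovary arrays measured on another platform. All 19938 genes that the array's annotation ties to a probe set of their own were compared, and a gene with several probe sets was represented by the one with the highest mean over the adult arrays.

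The mutant ovaries carried the genotype Foxl2 flox/flox x CreEBD, in which a floxed Foxl2 gene is combined with a Cre transgene. The labels used here do not state which promoter drives the Cre, what activated it, or when. The testes were wild type, so organ, chromosomal sex, the floxed allele and the Cre all differ between the groups and cannot be told apart. Each adult array holds the organ of a single animal at 8 weeks of age, perfused with PBS and frozen, and 300 ng of RNA was labelled. Ovaries were used whole and testes in part. Values are levels on the log2 scale made by the authors with RMA, a method that corrects background, normalizes arrays and summarises the probes of a set. A difference is the mean level in mutant ovaries minus that in testes, so that 1 on this scale is 2-fold, and it is given with the standard error (SE) of a limma fit. A gene passed at an adjusted p under 0.05 (limma, two-sided, Benjamini-Hochberg over all genes).

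Foxl2 is a forkhead transcription factor of granulosa cells, the somatic cells that surround the oocyte and convert androgen to oestrogen. Sertoli cells are their testicular counterpart: they line the seminiferous tubule, nurse the germ cells, seal the tubule with the blood-testis barrier and depend on SOX9 and DMRT1 for their identity. Loss of Foxl2 in the adult ovary is known to let granulosa cells take on Sertoli cell features. An adult testis differs from any ovary in that most of its cells are male germ cells in meiosis or in the shaping of sperm.

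The arrays of each group resembled one another closely. Across genes the Pearson correlation was 0.989 to 0.991 between mutant ovaries, 0.995 to 0.996 between testes, and 0.695 to 0.699 between an ovary and a testis. Genes are not independent replicates, so these values describe the arrays only. The median standard deviation (SD) of a gene was 0.147 among mutant ovaries and 0.105 among testes, and 13000 of the 19938 genes varied more among the ovaries. Precision is limited by the 3 arrays per group.

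Most genes differed. Of 19938 genes, 7819 (39.2%) were higher in mutant ovaries and 4988 (25.0%) were lower, together 64.2%. Every list count below is to be read beside these shares. With a difference of at least 2-fold in addition, 4034 genes (20.2%) were higher and 3154 (15.8%) lower. The large differences lay mostly on the testis side: 765 called genes were lower by 4 or more on the log2 scale and 26 were higher by as much. Differences ran from -8.36 to 6.25. For 42.8% of all genes every mutant ovary lay above every testis, and for 26.7% every mutant ovary lay below. For 10936 genes the 95% interval of the difference lay within 2-fold either way.

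These counts depend on how the arrays are put on a common scale. On the deposited scale the median over all genes was 0.14, and setting the array medians equal lowered differences by 0.09 and left 55.9% of the calls higher. When each array was centred on the median level of 10 ubiquitous genes, every difference fell by 1.40, and 1822 genes were higher and 16172 lower, so that 10.1% of the calls were higher in place of 61.1%. The ubiquitous genes themselves had a median difference of 0.54 on the deposited scale and of -0.86 after this centring, which left 8 of the 10 lower. A milder version, which shifts each array by the median deviation of those same genes, lowered differences by 0.44 and left 4965 genes higher and 9802 lower, 33.6% of the calls being higher. The ubiquitous genes did not move alike: B2m, the light chain of the MHC class I molecules that present antigen, differed by 2.67, and the translation factor Eef1a1 did not pass (difference 0.00, SE 0.07, adjusted p = 0.957). Directions below are on the deposited scale, and a direction that turns under a scaling is named with it. In whole organs, fewer cells of a type and less RNA per cell cannot be told apart.

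**Figure D1:**
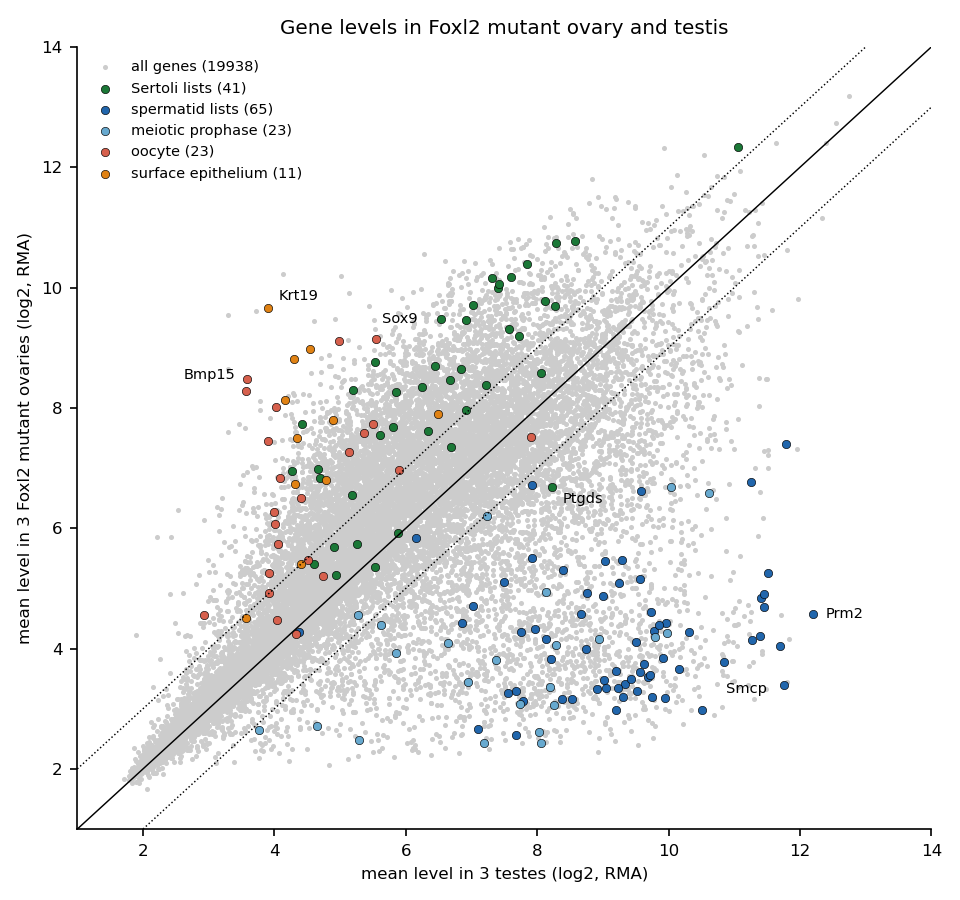
Each point is a gene, with its mean level in 3 testes on the x axis and in 3 Foxl2 mutant ovaries on the y axis (both log2, RMA). The solid line marks equal levels and the dotted lines 2-fold, and colours mark the gene lists. The spermatid and meiotic genes lie at the lower right, the oocyte and surface epithelium genes at the upper left, and most Sertoli genes above the line at middle to high levels in both organs.

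The level of Foxl2 was 5.81, 6.04 and 5.73 in the mutant ovaries and 5.22, 5.38 and 5.31 in the testes. The arrays did not overlap, and the mutant ovaries were higher by 0.55 (SE 0.12, adjusted p = 0.00203), a difference that turned to -0.84 when arrays were centred on ubiquitous genes. Both groups lay well under the 8.76 and 8.81 of the wild-type ovaries. Xist, the RNA that coats the inactive X chromosome of female cells, stood at 8.88, 8.62 and 8.42 in the mutant ovaries against 3.28, 3.40 and 3.20 in the testes (difference 5.35, SE 0.14, adjusted p = 4.46e-11).

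Y-linked genes ran the other way under every scaling tried. Of 7 measured, 6 were lower in mutant ovaries, with a median difference of -1.84. Eif2s3y, a translation initiation factor subunit, stood at 2.43, 2.57 and 2.50 in mutant ovaries and at 6.19, 6.46 and 6.55 in testes (difference -3.90, SE 0.13, adjusted p = 3.28e-10). Sry, the Y-linked gene that starts testis development in the embryo, was at 5.31 to 5.39 in mutant ovaries and 5.34 to 5.76 in testes. Those ranges overlapped and the difference of -0.17 did not pass (SE 0.13, adjusted p = 0.291). The labels of organ and sex therefore matched the arrays in all 6 samples.

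The transcription factors of Sertoli cells were, with few exceptions, more abundant in the mutant ovary than in the testis itself. Of 15 measured, 14 were higher and 0 lower, beside 39.2% and 25.0% of all genes, and the median difference was 2.26 beside 0.14. The list's median stayed above 0 under every scaling, at 0.86 when arrays were centred on ubiquitous genes, where 9 members were higher and 6 lower.

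Sox9, the factor that sets and keeps Sertoli cell identity, was at 9.56, 9.38 and 9.50 in the mutant ovaries. In the testes it was at 6.65, 6.6 and 6.34. Every mutant ovary thus stood above every testis, by 2.95 on average (SE 0.11, adjusted p = 8.39e-10). Its relative Sox8, which backs up Sox9 in the adult tubule, was at 8.74, 8.38 and 8.83 against 6.78, 6.81 and 6.96 (difference 1.80, SE 0.13, adjusted p = 1.71e-07). Dmrt1, which holds the male fate of Sertoli cells after birth and also acts in spermatogonia, was nearer to equal. It was at 8.05, 8.01 and 7.82 against 6.82, 7.0 and 6.93, a difference of 1.04 (SE 0.10, adjusted p = 3.90e-06) that turned to -0.35 with arrays centred on ubiquitous genes.

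Factors that Sertoli and granulosa cells share lay in the same range as Sox9. Gata4, a zinc finger factor of gonadal somatic cells, was at 10.22, 10.12 and 10.16 in mutant ovaries and 7.28, 7.31 and 7.34 in testes, a difference of 2.86. Differences of 2.58 for Wt1, 2.55 for Nr5a1 and 2.45 for Nr0b1, all regulators of the gonad from its first days, were of the same order. Gata1, which Sertoli cells share with red cell precursors, differed by 2.41, Rhox8 by 2.26 and Tcf21 by 3.09. The smallest called differences were those of Sox10 (0.29), Hopx (0.48), Etv5 (0.67) and Tsc22d3 (0.80), and all turned negative with arrays centred on ubiquitous genes, Sox10 also when arrays were shifted by them. The call of Sox10 was in addition lost in 10 of the other alternatives, among them the fit with all 8 adult arrays.

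Secreted and surface proteins of Sertoli cells followed the factors. Of 26 measured, 24 were higher and 1 was lower, with a median of 1.83, which stayed above 0 under every scaling tried (0.43 at the lowest). Amh, the hormone that removes the female duct in male embryos and that growing follicles also make, was at 7.23, 6.84 and 6.77 in mutant ovaries and at 4.21, 4.18 and 4.41 in testes. Its difference was 2.68 (SE 0.14, adjusted p = 1.92e-08), with no overlap. Cldn11, the claudin of the blood-testis barrier, was at 10.14, 9.80 and 10.24 against 7.31, 7.41 and 7.53 (difference 2.64, SE 0.12, adjusted p = 4.95e-09). Dhh, the hedgehog ligand by which Sertoli cells address Leydig and peritubular cells, differed by 1.87 (SE 0.16).

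Within this list the members spread over a wide range. Vnn1, a pantetheinase of the Sertoli cell surface, and Shbg, the sex steroid binding protein, were furthest apart between the organs, at 3.31 and 3.24. In the wild-type ovaries Vnn1 stood at 7.714 and 8.085, inside the 7.204 to 8.311 of the mutant ovaries. Shbg stood at 5.273 and 4.659 there, under the 8.713 to 8.834 of the mutant ovaries. Cst12, a cystatin, differed by 2.55, while Cst9, a cystatin of the same family, differed by 0.53 (SE 0.11, adjusted p = 0.00154) on the deposited scale and by -0.87 after centring on ubiquitous genes. Clu, the secreted chaperone clusterin, was among the brightest genes in both organs, at 12.38, 12.28 and 12.35 against 11.03, 11.03 and 11.09. Its difference of 1.28 also turned, to -0.11, with that centring. Col9a3 did not pass, at 5.80 to 6.03 in mutant ovaries and 5.81 to 5.97 in testes.

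Of the Sertoli genes measured, Ptgds was lower in mutant ovaries. It encodes the enzyme that makes prostaglandin D2, a signal that supports Sox9 in the embryonic testis. Its level was 6.67, 6.04 and 7.37 in the mutant ovaries and 8.21, 8.16 and 8.30 in the testes. The groups did not overlap, although the mutant ovaries spread over more than 1 unit, and the difference was -1.53 (SE 0.25, adjusted p = 2.55e-04). Over both lists together, 38 of 41 genes were higher and 1 was lower, with a median of 1.87. As no wild-type ovary enters the comparison, these counts do not tell which genes changed with the loss of Foxl2.

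**Figure D2:**
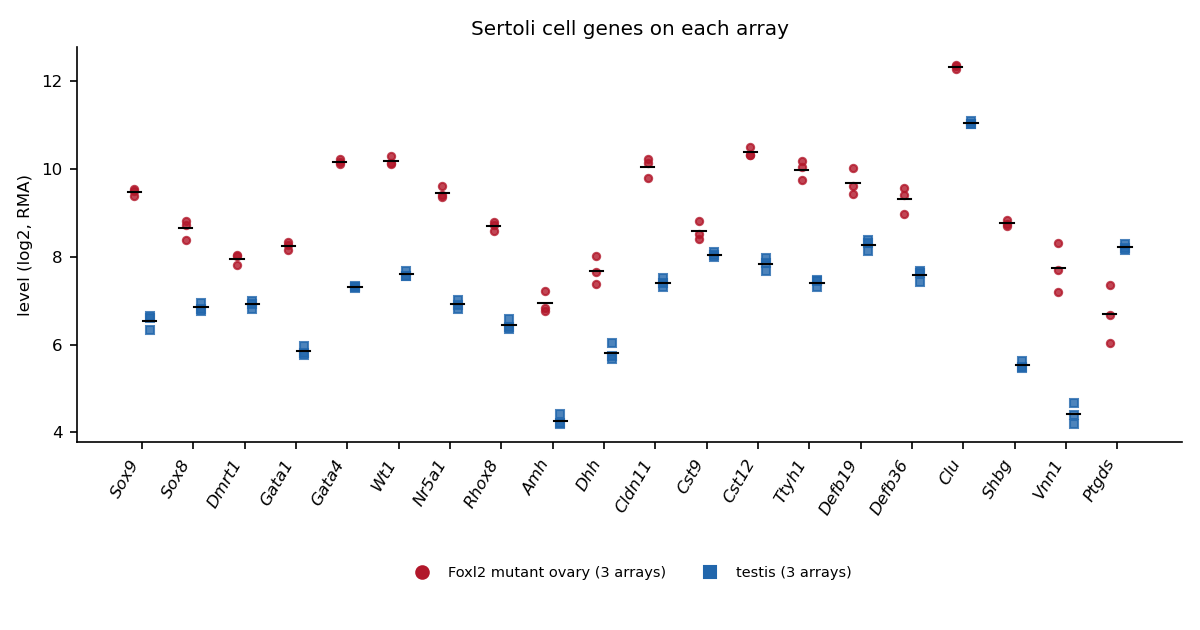
Levels (log2, RMA) of 20 Sertoli cell genes on each array, with mutant ovaries as red circles, testes as blue squares and group means as black bars. For 19 of the genes all 3 mutant ovaries lie above all 3 testes, and for Ptgds all lie below, while the mean differences of Dmrt1, Cst9 and Clu turn negative after centring on ubiquitous genes.

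Genes of the blood-testis barrier and its junctions were higher as well, 15 of 17 against 1 lower, with a median of 1.49 that stayed above 0 under every scaling but came down to 0.10 with arrays centred on ubiquitous genes. The list holds parts that ovarian epithelia and vessels also use. F11r, a junctional adhesion molecule, differed by 3.06, Gja1, the gap junction protein of both Sertoli and granulosa cells, by 2.64, and Ocln, the tight junction protein occludin, by 2.57. Cldn3 overlapped between the groups and did not pass (difference 0.32, SE 0.18, adjusted p = 0.134), although it passed without mutant ovary 1, at 0.50. Nectin3 went against the list. This adhesion molecule is the spermatid's side of its contact with the Sertoli cell, and it stood at 6.78, 6.96 and 6.73 in mutant ovaries against 10.01, 10.05 and 10.05 in testes (difference -3.21, SE 0.09). Its Sertoli cell partner Nectin2 was higher by 2.25.

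Granulosa cell genes were also higher in mutant ovaries than in testes, 20 of 21 against 1 lower, with a median of 2.00 that stayed above 0 under every scaling (0.61 at the lowest). Several of them are shared with Sertoli cells, such as Fshr, Inhbb and Amhr2. Inha, the alpha subunit of inhibin, was at 10.89, 10.81 and 11.32 against 8.06, 7.98 and 8.28 (difference 2.90, SE 0.13). Kitl, the ligand by which granulosa and Sertoli cells support germ cells, was at 9.16, 9.22 and 9.12 against 5.65, 5.93 and 6.08, a difference of 3.28 (SE 0.12, adjusted p = 7.52e-10).

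Wnt4 and Rspo1, the signals that support ovarian fate, differed by 1.40 and 1.12, and Fst, the activin antagonist follistatin, by 1.03. Rspo1 and Fst turned to -0.28 and -0.37 with arrays centred on ubiquitous genes. Irx5 was lower, at 5.02 to 5.31 against 5.51 to 5.81 (difference -0.46, SE 0.13, adjusted p = 0.00915), at levels near the median of all values, 5.49. Aromatase was not analysed here.

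Steroid synthesis genes were mostly higher in mutant ovaries, with isoforms on opposite sides. Of 13 genes measured, 10 were higher in mutant ovaries and 2 lower, with a median of 2.16 that stayed above 0 under every scaling (0.77 at the lowest). Star, which carries cholesterol into the mitochondrion, was at 8.89, 9.18 and 9.73 against 6.57, 6.54 and 7.55, a difference of 2.38 (SE 0.27, adjusted p = 1.14e-05) with testis 3 well above the other two testes. Cyp11a1, which cuts the side chain of cholesterol, was at 11.59, 11.79 and 12.05 against 8.88, 8.72 and 8.88 (difference 2.98, SE 0.11, adjusted p = 9.62e-10).

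Cyp17a1, which makes androgen precursors in theca and Leydig cells, was closer. It was at 11.18, 11.34 and 12.12 against 10.47, 10.44 and 10.72, a difference of 1.00 (SE 0.20, adjusted p = 9.51e-04) that turned to -0.39 with arrays centred on ubiquitous genes. Mutant ovary 3 was the highest of the 6 arrays for Star, Cyp11a1 and Cyp17a1.

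The isoforms of the later steps parted. Hsd3b1, the 3-beta-hydroxysteroid dehydrogenase of the ovary and the fetal testis, was at 8.14, 8.24 and 8.17 in mutant ovaries against 5.09, 4.67 and 5.09 in testes (difference 3.23, SE 0.13, adjusted p = 1.84e-09). Hsd3b6, the isoform of adult Leydig cells, was at 3.94, 5.15 and 5.18 against 8.29, 8.35 and 8.90 (difference -3.76, SE 0.30, adjusted p = 4.94e-07). These relatives are alike in sequence, so probes of either could take up some RNA of the other, and the arrays still placed them on opposite sides in every sample.

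The 17-beta-hydroxysteroid dehydrogenases showed the same split. Hsd17b1, the ovarian enzyme that makes oestradiol, was at 7.24, 6.90 and 7.11 against 4.97, 4.85 and 4.76, a difference of 2.22 (SE 0.13). Hsd17b3, the Leydig cell enzyme that makes testosterone, was at 5.04, 5.12 and 5.68 against 7.41, 7.50 and 7.51, a difference of -2.19 (SE 0.16, adjusted p = 2.39e-07).

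The Leydig cell list as a whole had no shared direction: 5 of 9 genes were higher and 4 lower, beside 39.2% and 25.0% of all genes. Its median of 0.35 turned to -1.05 when arrays were centred on ubiquitous genes and to -0.09 when shifted by them. The 4 lower genes were Hsd3b6, Hsd17b3, Sult1e1 (-3.19), which sulphates oestrogen in Leydig cells, and the esterase Ces1d (-0.98). The higher genes Star, Cyp11a1 and Cyp17a1 are shared with ovarian theca or luteal cells. Insl3 and Lhcgr were not analysed here. Of 14 genes of cholesterol synthesis 7 were higher and 4 lower, beside 39.2% and 25.0% of all genes. Their median of 0.35 turned to -1.05 and -0.09 under those scalings.

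**Figure D3:**
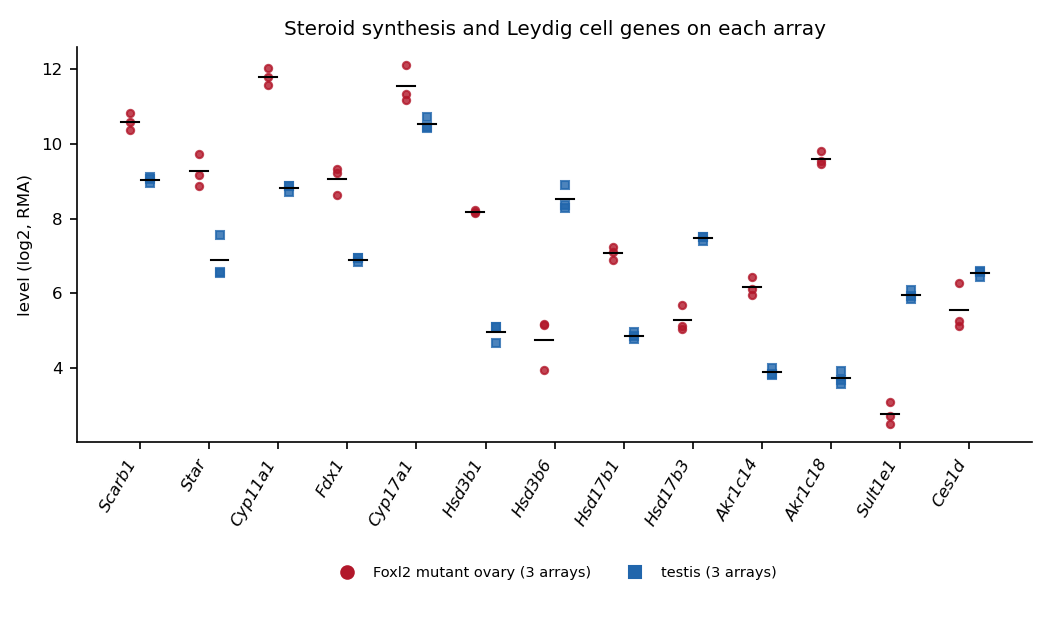
Levels (log2, RMA) of 13 genes of steroid synthesis and Leydig cells on each array, with mutant ovaries as red circles, testes as blue squares and group means as black bars. Hsd3b6, Hsd17b3, Sult1e1 and Ces1d are lower in all 3 mutant ovaries than in all 3 testes, and the other 9 are higher, of which Cyp17a1 turns from 1.00 to -0.39 after centring on ubiquitous genes.

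The corpus luteum, which has no testicular counterpart, had the highest list median under every scaling tried. All 4 corpus luteum genes measured were higher, with a median of 5.0, which was 3.60 with arrays centred on ubiquitous genes. Akr1c18, which inactivates progesterone in the corpus luteum, was at 9.45, 9.81 and 9.56 against 3.58, 3.68 and 3.91 (difference 5.88, SE 0.13, adjusted p = 1.74e-11). Sfrp4, a secreted Wnt antagonist of luteal cells, had the largest difference of all named genes, 6.25 (SE 0.47), and uneven levels in the mutant ovaries, 8.24, 10.73 and 9.66, against 3.06 to 3.59 in testes.

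Oocyte genes were higher for 21 of 23 genes and lower for 1, with a median of 2.10 that stayed above 0 under every scaling (0.70 at the lowest). Bmp15, a growth factor that the oocyte sends to its granulosa cells, was at 8.49, 8.50 and 8.44 against 3.88, 3.45 and 3.40 (difference 4.9, SE 0.14, adjusted p = 9.56e-11). The zona pellucida genes Zp2, Zp3 and Zp1, which encode the coat of the egg, differed by 4.72, 4.00 and 3.56. Figla, a factor of young oocytes, overlapped between the organs at 4.13 to 4.38 and 4.17 to 4.47 and did not pass. Nlrp14, which the testis expresses too, was lower by a small margin (difference -0.40, SE 0.14, adjusted p = 0.0282). That call was lost without mutant ovary 1 or 3 or any testis, the difference being -0.26 without mutant ovary 3.

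Male germ cell genes made up the other end of the comparison. In the lists for meiotic prophase, spermatid regulators, acrosome and flagellum every measured gene was lower in mutant ovaries: 23 of 23, 18 of 18, 16 of 16 and 22 of 22, beside 25.0% of all genes. The medians were -3.56, -4.26, -5.48 and -5.81, and they were below 0 under every scaling. In the sperm nucleus list 9 of 10 were lower (median -5.15), and in the piRNA and germ granule list 17 of 18 (median -3.80). The median difference thus became larger from the meiotic list to the lists of the late spermatid.

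Most of these genes were dim in the mutant ovary. Of the 65 genes in the spermatid lists, 59 had a mean in mutant ovaries under 5.49, the median of all values on the arrays. Over all genes, 2578 of the genes called lower had a mutant ovary mean under that level, and 3855 of those called higher had a testis mean under it. A difference measured from so dim a level can understate the ratio.

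The synaptonemal complex gene Sycp3, which pairs chromosomes in meiosis, was at 2.80, 3.61 and 2.80 in mutant ovaries against 8.21, 8.19 and 8.35 in testes (difference -5.18, SE 0.20, adjusted p = 1.22e-09). Stag3, the meiotic cohesin subunit, differed by -5.60, and Spo11, which makes the breaks that start recombination, by -4.67. The smallest difference of the list was that of Prdm9, which places those breaks, at -0.71 (SE 0.13, adjusted p = 5.65e-04). In the germ granule list Tdrd6, a Tudor protein of the chromatoid body, differed by -7.36, Piwil1, the Piwi protein of spermatocytes and spermatids, by -5.22, and Ddx4, the germ cell helicase, by -5.44. Piwil4, whose expression is known from fetal prospermatogonia, was at 3.82 to 3.88 on all 6 arrays.

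Among the spermatid regulators, Crem, the activator of post-meiotic genes that binds cyclic AMP response elements, was at 5.05, 5.14 and 4.56 against 8.65, 8.85 and 8.77 (difference -3.84, SE 0.15, adjusted p = 1.40e-09). Prm2, a protamine that packs sperm DNA, was at 4.31, 4.55 and 4.88 against 12.11, 12.30 and 12.19, a difference of -7.62 (SE 0.13). Smcp, a protein of the sperm mitochondrial capsule, had the lowest difference of all, with 3.55, 3.27 and 3.39 in mutant ovaries against 11.71, 11.70 and 11.88 in testes. That is -8.36 (SE 0.11, adjusted p = 2.24e-12). Each of these genes separated the organs by several times the spread within either group. Of the genes put in the sperm nucleus list, H2bu2 did not pass, at 4.17 to 4.46 on all arrays.

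Because CREM acts through the palindrome TGACGTCA, the upstream windows of the lists were searched for it in RefSeq's promoter table (build GRCm38.p6, 250 bases before the annotated start, both strands). It was found for 3 of the 59 spermatid list genes with a window (5.1%), beside 2.3% of 15614 measured genes, for 0 of 20 meiotic genes, and for 15 of 626 genes lower by 4 or more (2.4%). The shorter form TGACGT, which the palindrome contains, was in 7 of the 59 (11.9%) and in 45 of the 626 (7.2%), beside 9.0% of all. The genes with the palindrome were Celf3, Izumo1 and Spag6l. A match of letters is a description of the window and not a site of binding. The windows of the sperm and egg fusion gene Izumo1, whose level was 3.14, 3.31 and 3.31 against 7.58, 7.52 and 7.56, and of the flagellar gene Spag6l, at 4.21, 4.45 and 4.15 against 10.30, 10.29 and 10.37, are shown because they hold the palindrome at different distances from the start. They lie at chr7:45621561-45621810 on the plus strand, with the palindrome at -96 to -89, and at chr16:16829364-16829613 on the minus strand, with the palindrome at -9 to -2. Capitals mark the palindrome, and each window reads 5′ to 3′ towards the gene.
Izumo1: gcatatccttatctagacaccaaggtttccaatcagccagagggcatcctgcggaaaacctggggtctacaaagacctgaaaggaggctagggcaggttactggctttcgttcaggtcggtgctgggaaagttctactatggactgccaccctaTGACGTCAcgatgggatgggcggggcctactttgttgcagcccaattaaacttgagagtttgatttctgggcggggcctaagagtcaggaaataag
Spag6l: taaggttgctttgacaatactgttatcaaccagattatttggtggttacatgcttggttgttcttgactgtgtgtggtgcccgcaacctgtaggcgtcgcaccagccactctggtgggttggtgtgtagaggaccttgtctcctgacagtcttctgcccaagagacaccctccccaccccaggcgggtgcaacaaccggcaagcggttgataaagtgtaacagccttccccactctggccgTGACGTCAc

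Other sequence motifs gave shares near the background. AAGGTCA, the letters bound by NR5A1 and its relatives, was in 0 of 9 steroid synthesis windows and 4.0% of all. AACAAT, the core read by SOX proteins, was in 3 of 24 Sertoli windows (12.5%) and 9.0% of all. Counts this small do not separate a list from the background.

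Spermatogonial genes had no shared direction. Of 18 measured, 6 were higher and 8 lower, beside 39.2% and 25.0% of all genes. The list's median of -0.12 was below 0 under every scaling tried. Kit, the receptor of differentiating spermatogonia and of oocytes, was at 9.03, 9.13 and 9.13 against 7.04, 7.03 and 7.07, a difference of 2.05 (SE 0.09), and Uchl1, which neurons and oocytes share with spermatogonia, was higher by 1.52. Stra8, which opens meiosis, was lower by 1.13 on the log2 scale, a difference of -1.13 (SE 0.12, adjusted p = 6.54e-06). Stem cell genes went both ways: Id4 (-1.14) and Gfra1 (-0.39) were lower, and Zbtb16 (0.56) and Sall4 (0.64) were higher. Zbtb16 and Sall4 turned negative with arrays centred on ubiquitous genes. The stem cell genes Nanos2, Ret and Lin28a did not pass.

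Male germ cells express close relatives of many genes that other cells rely on, and such pairs could be set side by side. Of 28 listed pairs 24 had both genes measured, and the testis relative was lower in mutant ovaries in 23, by at least 2-fold in 22, with a median of -4.38. The relatives were listed because they are known from testis, so their direction follows largely from that choice. The gene of all cells was higher in 16, lower in 5 and not past the threshold in 3, beside 39.2% of all genes higher and 25.0% lower. Its median of 1.10 turned negative with arrays centred on ubiquitous genes. In 15 pairs the gene of all cells was higher and its testis relative lower, and in 8 pairs with that centring.

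The glycolytic kinase Pgk1, encoded on the X chromosome, was at 8.47, 8.85 and 8.87 in mutant ovaries against 6.68, 6.71 and 6.72 in testes (difference 2.03, SE 0.12). Pgk2, its copy in spermatocytes and spermatids, was at 3.11, 3.29 and 3.23 against 10.43, 10.45 and 10.52 (difference -7.25, SE 0.10, adjusted p = 2.24e-12). Smc1a and its meiotic relative Smc1b differed by 2.84 and -4.78, Rpl10 and Rpl10l by 2.61 and -4.61, and Pdha1 and Pdha2 by 2.52 and -3.99. Like Pgk1, the genes Smc1a, Rpl10 and Pdha1 are X-linked, and all but Smc1a are counted again in the X-linked list below. Off the X chromosome, the genes of all cells ranged from 2.52 for Vdac1 to -2.42 for Tbp, and the 5 lower ones were all among these.

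Some pairs broke the pattern. Ldha, lactate dehydrogenase A, was lower along with its testis form Ldhc, by -1.67 and -7.51, and Tbp, the TATA-binding protein, which round spermatids hold in excess, was lower along with Tbpl1, by -2.42 and -2.96. Vdac3, a mitochondrial channel, did not differ past the threshold (0.03, SE 0.08, adjusted p = 0.812) while Vdac1 was higher by 2.52. Close copies can share probe sequence, which would bring the members of a pair nearer to each other.

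**Figure D4:**
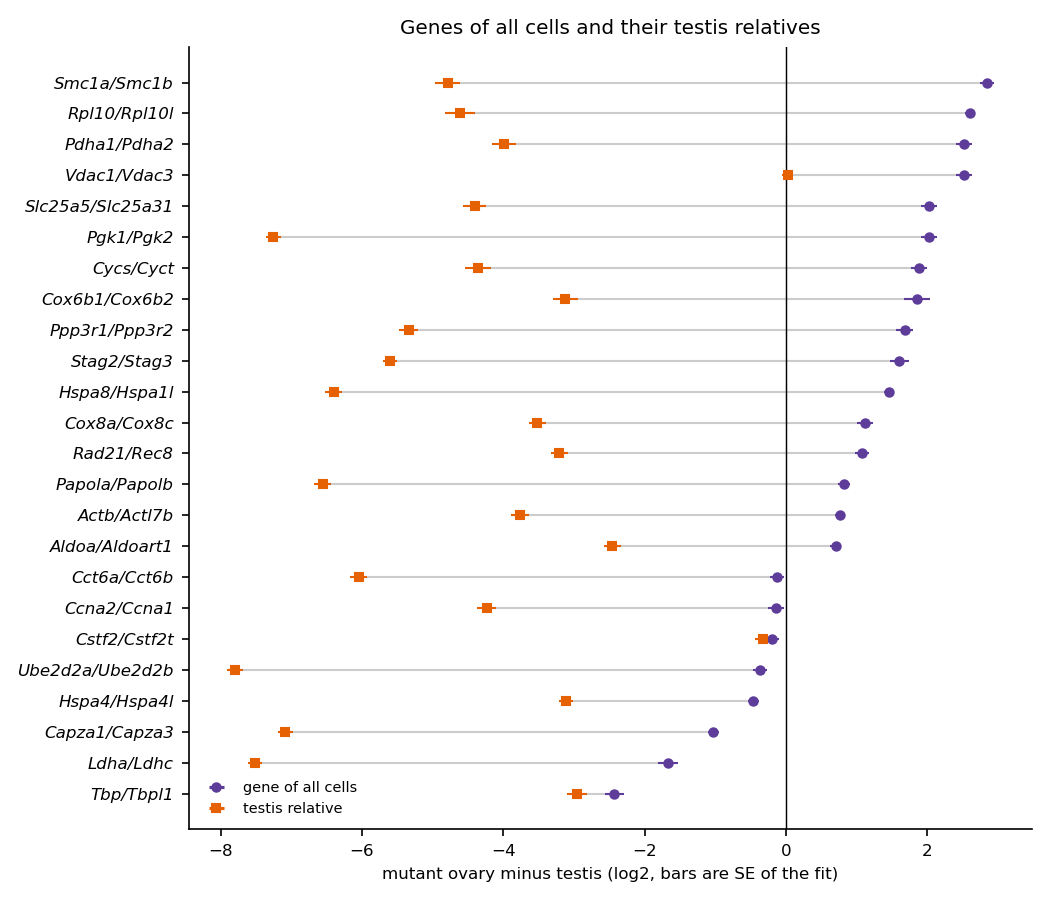
Difference between mutant ovary and testis (log2, bars are the SE of the fit) for 24 genes of all cells, as purple circles, and their testis relatives, as orange squares, each pair joined by a grey line. In 23 pairs the testis relative lies left of 0 and past the threshold, and Vdac3 lies at 0.03.

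X-linked genes listed as used by all cells were higher in mutant ovaries for 26 of 27 genes and lower for 0, with a median of 2.12 that stayed above 0 under every scaling (0.72 at the lowest). The largest differences of the list were those of Timp1 (3.97) and Bgn (3.40), which are genes of the extracellular matrix. Bgn is also counted in the collagen list. As background, male germ cells silence the X chromosome in meiosis, and the organs differ in its copy number. Ddx3x, an RNA helicase that escapes X inactivation, was at 10.68, 10.77 and 10.75 against 7.88, 7.74 and 7.89 (difference 2.90, SE 0.08, adjusted p = 1.12e-10). Hprt, a purine salvage enzyme that is subject to inactivation, was at 7.97, 8.28 and 8.30 against 6.14, 6.11 and 6.62 (difference 1.89, SE 0.15). Cstf2, a polyadenylation factor, did not pass (-0.20, SE 0.10, adjusted p = 0.102).

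Markers of other somatic cells were higher in mutant ovaries along with the Sertoli lists. Endothelial genes were higher for 9 of 10 (median 1.85), macrophage and leukocyte genes for 16 of 17 (median 1.89), collagen and basement membrane genes for 23 of 25 (median 2.32) and surface epithelium and mesothelium genes for 11 of 11 (median 2.90). No member of those lists was lower on the deposited scale, while with arrays centred on ubiquitous genes 3 endothelial, 2 leukocyte, 4 collagen and 2 surface epithelium genes were lower and 5, 9, 19 and 7 higher. The medians stayed above 0 under every scaling, the lowest being 0.45, 0.49, 0.92 and 1.5 with arrays centred on ubiquitous genes. Of the Sertoli lists, the median of the factors, 2.26, lies inside the range of these medians, and that of the secreted proteins, 1.83, just under it. The mean level of the endothelial list was 6.62, 6.93 and 6.66 in mutant ovaries and 4.93 to 4.96 in testes, and that of the leukocyte list 7.06, 7.62 and 7.17 against 5.25 to 5.39. The flagellum list, at a mean level of 4.07 to 4.11 in mutant ovaries and 9.97 to 10.01 in testes, moved the opposite way. The part of cell composition in the Sertoli result was not tested.

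Contractile and vascular genes give a finer view. Acta2, the smooth muscle actin of vessels, theca and peritubular myoid cells, was higher by 1.34 (SE 0.17), which became -0.05 with arrays centred on ubiquitous genes. Actg2, an enteric form of smooth muscle actin, was at 5.34, 5.18 and 5.96 against 9.44, 9.55 and 9.51 (difference -4.0, SE 0.17, adjusted p = 3.08e-09). Of 10 smooth muscle and myoid genes 6 were higher and 1 lower, beside 39.2% and 25.0% of all genes. Their median of 0.82 turned to -0.58 with arrays centred on ubiquitous genes. Kdr, the VEGF receptor of endothelium, was at 8.01, 7.90 and 7.87 against 4.63, 4.40 and 4.34, a difference of 3.46 (SE 0.12).

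Markers of tissues next to the gonads were mostly dim. Of 4 oviduct genes 2 were higher, of 7 epididymis genes 1 was higher and 1 lower, and of 6 adipocyte genes 1, Plin1, was higher. Of all genes, 39.2% were higher and 25.0% lower. Adipoq of adipocytes and Lcn5 of the epididymis lay low in both organs, at 3.38 to 3.97 and 3.31 to 3.71 over all 6 arrays. The oviduct gene Ovgp1 was not analysed here. Medians were 0.21, -0.02 and 0.08, and those above 0 turned negative under both scalings by ubiquitous genes. Of the 2 erythrocyte genes measured, Alas2 was lower (difference -0.58, SE 0.11).

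**Figure D5:**
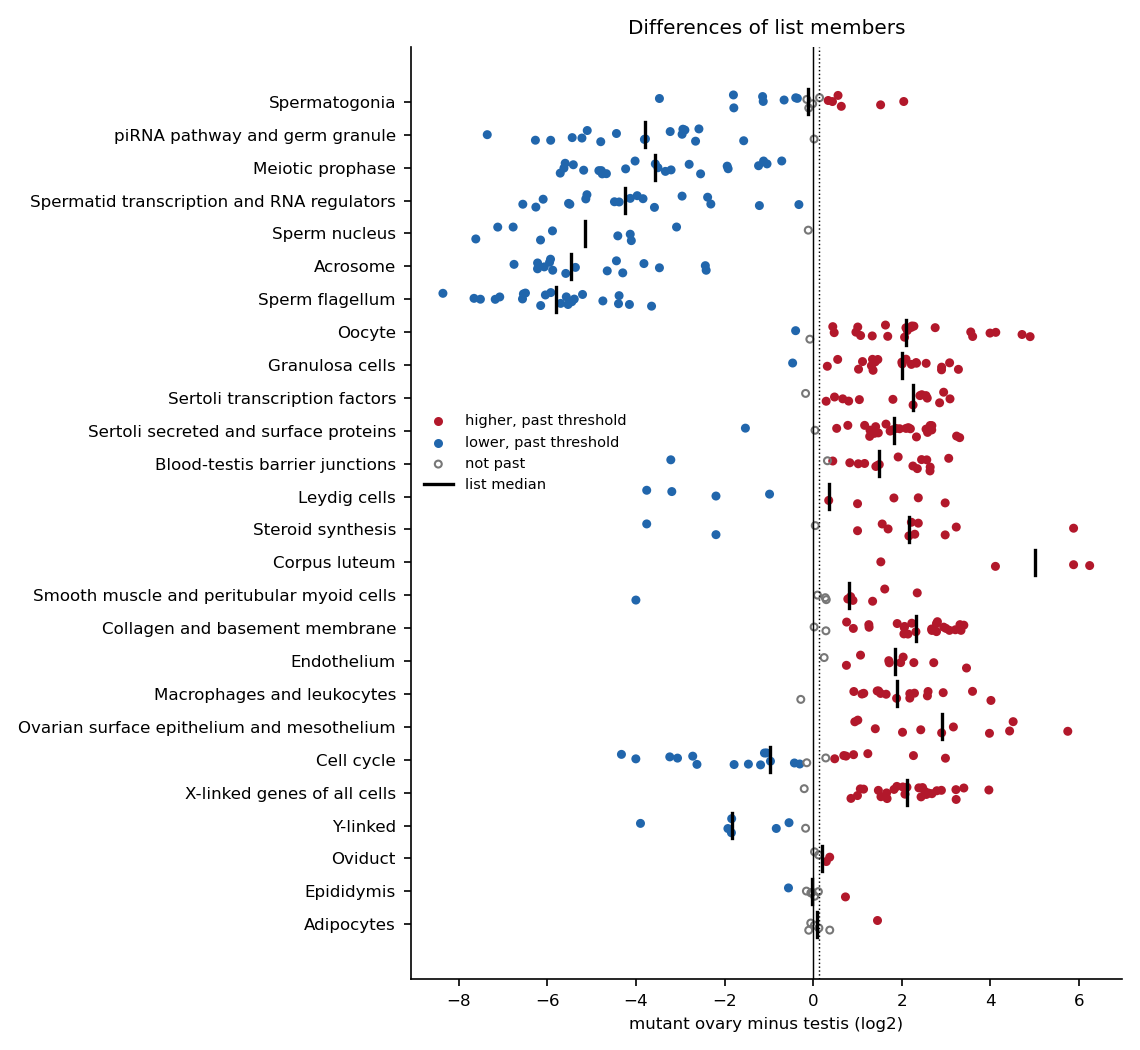
Difference between mutant ovary and testis (log2) for every measured member of 26 lists, with red points for genes higher past the threshold, blue for lower, open grey for not past, and a black bar for the list median. The solid line marks 0 and the dotted line the median over all genes, 0.14. Germ cell lists from piRNA to flagellum lie to the left, the Sertoli, granulosa and oocyte lists and most other somatic lists to the right, and the spermatogonial, oviduct, epididymis and adipocyte lists near 0, while the Leydig and smooth muscle medians lie above 0 here and below 0 after centring on ubiquitous genes.

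The 20 largest differences in each direction held members of the lists and other genes. The higher genes included the luteal genes Sfrp4 and Akr1c18, oocyte genes (Bmp15, Zp2, Rfpl4) and surface epithelium genes (Krt19, Upk1b, Upk3b). Igfbp5, which binds insulin-like growth factors, was at 10.43, 10.45 and 9.81 against 4.32, 4.09 and 3.98 (difference 6.10, SE 0.17). Gpx3, the secreted glutathione peroxidase, differed by 5.18, and Mmp2, a gelatinase of the stroma, by 4.77.

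The 20 lowest included the list members Prm2 and Smcp. Fabp9, a fatty acid binding protein of the sperm head, differed by -8.35, Gk2, a glycerol kinase of the testis, by -8.14, and Crisp2, a sperm protein of the acrosome and tail, by -7.80. Adam3 and Adam5, surface proteins of sperm, differed by -7.50 and -7.82, and Clgn, the chaperone calmegin that folds such proteins, by -7.26. Marchf11 has a second probe set at -1.10 beside its -7.70, so its size depends on the probe set used. That all testes lay above all mutant ovaries for each of the 20 was a condition of their choice and not a result.

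Variable genes were ranked among those with a group mean of at least 5.49, without predicted genes or olfactory, vomeronasal or antigen receptor genes. Of these, Saa3, an acute phase protein, had the largest SD among the mutant ovaries, 1.82, with levels of 5.62, 8.00 and 9.19 against 3.00 to 3.47 in testes. Serpina3n, another acute phase protein, was at 7.66, 7.26 and 10.28, and Mmp12, the macrophage elastase, at 6.11, 8.64 and 5.72. High values therefore fell on different ovaries for different genes, mutant ovary 3 for Serpina3n and mutant ovary 2 for Mmp12, whose difference of 2.38 was 1.47 without that ovary. The surface epithelium list followed Saa3 in its order, with mean levels of 7.02, 7.45 and 7.96 in mutant ovaries 1 to 3 against 4.49 to 4.56 in testes, and its member Krt7 was at 7.44, 7.66 and 9.33. The Sertoli factors did not vary in this way, with mean list levels of 8.05, 8.07 and 8.08 in mutant ovaries and 6.32 to 6.33 in testes.

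Variable genes of the testes were ranked under the same limits. The most variable was Cstdc2, a cystatin-like gene, at 5.04, 6.51 and 7.0 (SD 1.02). Star had the third highest SD of the genes ranked, with testis 3 at 7.55 beside 6.57 and 6.54. The Leydig cell list had its highest mean level in testis 3 too, at 8.12 beside 7.91 and 7.86. Without testis 3 the difference of Star was 2.71.

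Signalling genes were compared by their place in the pathway. In the hedgehog list 9 of 14 genes were higher and 1 lower, beside 39.2% and 25.0% of all genes. The list's median of 0.75 turned to -0.65 with arrays centred on ubiquitous genes. The ligand Dhh is given above, and of the other ligands Ihh differed by 0.32, which turned negative under both scalings by ubiquitous genes and lost its call in 9 of the other alternatives, and Shh did not pass. Ptch1, the receptor and a target of the pathway, was at 9.71, 9.45 and 9.58 against 6.43, 6.43 and 6.59 (difference 3.10, SE 0.10, adjusted p = 3.52e-10), and Smo, the signal transducer, differed by 2.93. Gli1, a direct target, differed by 0.89, which became -0.50 with that centring. Hhip, another target, overlapped between the organs and did not pass (difference -0.02, SE 0.12, adjusted p = 0.876). Sufu, an inhibitor inside the cell, was lower, at 6.67, 6.87 and 6.68 against 9.02, 8.87 and 8.95 (difference -2.21, SE 0.10).

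In the Wnt list 17 of 20 genes were higher and 2 lower, with a median of 1.62 that stayed above 0 under every scaling (0.22 at the lowest). Of the ligands Wnt5a, a stromal signal, was at 7.95, 7.88 and 8.00 against 4.52, 4.35 and 4.91 (difference 3.35, SE 0.14). Among the receptors Fzd1 differed by 2.26, and the R-spondin receptor Lgr5 by 3.05, with mutant ovary 3 at 6.52 below the others at 7.52 and 7.45. The target Axin2 was higher by 2.34 (SE 0.11). Lef1, a nuclear effector, was lower, at 5.73, 5.72 and 5.52 against 7.96, 7.76 and 7.83 (difference -2.19, SE 0.11, adjusted p = 1.06e-08).

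Hormone receptors were higher for 8 of 10 genes and lower for 1, with a median of 1.57 that stayed above 0 under every scaling (0.18 at the lowest). Fshr, the receptor of follicle-stimulating hormone in granulosa and Sertoli cells, was at 6.79, 6.95 and 7.23 against 4.45, 4.62 and 4.9 (difference 2.33, SE 0.15, adjusted p = 1.06e-07). The oestrogen receptors Esr1 and Esr2 differed by 1.85 and 1.35, and Esr2 turned to -0.04 with arrays centred on ubiquitous genes. Amhr2, the receptor of AMH, was bright in both organs, at 10.60, 10.41 and 10.86 against 9.31, 9.34 and 9.19, and its difference of 1.34 turned to -0.06 with that centring. Pgr, the progesterone receptor, did not pass, at 3.58 to 3.88 on all arrays.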

How the data were processed

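RNA of 3 adult Foxl2 mutant ovaries and 3 adult wild-type testes was measured on 1-colour arrays with 35557 probe sets. The authors deposited log2 values, and the submitters' processing notes name RMA and the Affymetrix Expression Console, with no version given in the sources used here. The 4 columns of the newborn table were not used.

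Of the probe sets, 21789 were tied to a single gene by the platform annotation, 1621 to several, while 12147 have no gene name here. RefSeq (GRCm38.p6) supplied current symbols by gene ID, and 91 probe sets kept the older symbol. Of the 19938 genes, 999 had more than 1 probe set, and the one with the highest mean over the 8 adult arrays was used.

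The 6 arrays were fitted in R 4.3.3 with limma 3.58.1 (lmFit, eBayes with trend), and the procedure was tested on simulated data. Groups hold separate animals. Alternatives were a fit with all 8 adult arrays, other priors, array weights, a replicate block, a filter on genes under 5.49, the mean of probe sets, 4 scalings of which 1 was added after the data were seen, and leaving out each array.

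Genes named are Foxl2 and Xist, members of the lists and pairs, the 20 largest differences in each direction among called genes without overlap, and the 10 most variable genes of each group at or above the median level, without predicted genes or genes of olfactory, vomeronasal or antigen receptors. The samples compared, the lists and the pairs were chosen with earlier results of these data known, and counts over a list are descriptions without a test of the list.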

Additional observations from a re-analysis of the deposited data

How the results depend on the processing

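Arrays limit these results by their number and by dim signals. Leaving out each array in turn gave 7205 to 7763 genes higher and 4733 to 5068 lower, 3924 to 4151 and 3124 to 3195 at 2-fold. Deviations of same-numbered arrays correlated at 0.079, 0.06 and 0.058, and those of differently numbered arrays at -0.06 to -0.002. The labels do not say that replicate numbers pair animals. So few arrays cannot tell whether same-numbered arrays share a step of handling. A fit with the replicate block gave 7786 genes higher and 5007 lower. It lost the calls of Sox10 and Ihh among the 153 named genes that were followed across the alternatives. Outside the scalings by ubiquitous genes, none of the followed genes that were called turned its direction. Calls changed for 7 of them, Sox10, Ihh, Nlrp14, Cldn3, Cstf2, Vdac3 and Cyp17a1, the last with all 8 adult arrays in the fit.

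Centring on ubiquitous genes moved the counts to 1822 higher and 16172 lower (660 and 12856 at 2-fold), and the scaling added later to 4965 and 9802 (2548 higher at 2-fold). With the centring, members higher were 9 for Sertoli factors, 15 for Sertoli secreted proteins, 8 for junctions, 11 for granulosa and 13 for oocyte genes, and 8 pairs split. List medians above 0 numbered 21 of 32, 14 with the centring and 16 with the later scaling. Differences turned to -0.84 for Foxl2, -0.35 for Dmrt1, -1.10 for Sox10, -0.92 for Hopx, -0.73 for Etv5, -0.59 for Tsc22d3, -0.87 for Cst9, -0.11 for Clu, -0.057 for Amhr2, -0.28 for Rspo1, -0.37 for Fst, -0.39 for Cyp17a1, -0.054 for Acta2, -1.08 for Ihh, -0.50 for Gli1 and -0.044 for Esr2 with the centring, and to -0.14 for Sox10 and -0.12 for Ihh with the later scaling. The centring level lay midway between Sdha and Ywhaz in mutant ovaries, with means of 10.11 and 10.86. In testes it lay midway between B2m and Sdha, with means of 8.55 and 9.61. The level subtracted thus came from different genes in each group. Why the ubiquitous genes differ between the organs was not tested.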

Other observations

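Cell cycle genes were lower in mutant ovaries for 14 of 23 genes and higher for 7, beside 25.0% and 39.2% of all genes, with a median of -0.96 that was below 0 under every scaling. Of the lower genes, Ccnb2, a cyclin of the entry into division, was at 6.08, 4.59 and 5.24 against 9.51, 9.67 and 9.72 (difference -4.33, SE 0.28), and the kinases Bub1 and Aurka differed by -4.0 and -3.06. Ccnd2, the cyclin that carries the FSH signal into granulosa cell division, was at 9.76, 9.39 and 9.19 against 6.30, 6.42 and 6.65 (difference 2.99, SE 0.15). Cdkn1b, an inhibitor of the cycle, was higher by 2.27. Top2a was lower by its brighter probe set (-3.24) and differed by 0.59 by the other, so its direction depends on the probe set.

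In the retinoid pathway 8 of 17 genes were higher and 2 lower, beside 39.2% and 25.0% of all genes. The list's median of 0.26 turned to -1.14 when arrays were centred on ubiquitous genes and to -0.18 when shifted by them. Aldh1a1, which makes retinoic acid, was at 12.23, 12.19 and 12.56 against 10.01, 9.86 and 9.90 (difference 2.40, SE 0.10). Aldh1a2, an enzyme of the same step, overlapped between the organs, at 8.77, 9.38 and 9.79 against 9.35, 9.21 and 9.32. Stra6, the importer of retinol, and Dhrs3, which turns retinal back into retinol, differed by 2.36 and 2.94. Cyp26b1, which degrades retinoic acid in the male gonad, did not pass (0.09, SE 0.18, adjusted p = 0.688).

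Among the 20 largest differences on the higher side, Rab7b and Edn1 were set beside the wild-type ovaries after their values were seen. Rab7b, a small GTPase of late endosomes, was at 8.29, 7.87 and 8.20 in mutant ovaries, 3.68 to 3.83 in testes and 5.36 and 5.79 in wild-type ovaries. Edn1, the vasoconstrictor endothelin, was at 8.20, 7.89 and 7.79, 3.66 to 4.00, and 4.76 and 4.04. Both genes were thus brighter in every mutant ovary than on any other adult array. The same held, by smaller margins, for others of the 20, such as Krt19, Xist, Upk1b and Saa3. Of 12147 probe sets that are unnamed here, 1871 (15.4%) were higher and 743 (6.1%) lower in mutant ovaries, beside 39.2% and 25.0% of the named genes.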
